A study of Mus musculus with 6 samples.

Results

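The genes of cholesterol synthesis and of its control by SREBP2 were followed in the livers of mice with a mutant Ing5 allele and of wild-type mice. The set was chosen by gene symbol: 27 symbols cover the enzymes of the mevalonate and sterol pathway, the transcription factor gene Srebf2 with its regulators, and genes of sterol transport and receptor turnover. Of these, 26 had their Ensembl ID among the 37991 gene IDs of the count tables, and all 26 passed the filter on low counts and were tested. Hmgcs1, the gene of the cytosolic HMG-CoA synthase, was not analysed here because its ID did not match. The livers came from FVB mice 84 days old. The Het group held 3 livers with the genotype Ing5 MommeD48/+, in which 1 of the 2 copies of Ing5 carries the MommeD48 allele, and the WT group held 3 livers with the genotype Ing5 +/+. The series' title ties the allele to a screen for mutations affecting transgene silencing, and the labels give neither the kind of mutation nor the sex of the mice. They do not say that each liver is from a separate animal, so the spread between replicates may be partly technical.

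Cholesterol is built in the endoplasmic reticulum and cytosol from acetyl-CoA by way of mevalonate, isoprenoid diphosphates, squalene and lanosterol, and the liver is a main site of its synthesis. SREBP2 is a membrane-bound transcription factor whose release depends on the sterol sensors SCAP and INSIG: when sterols are scarce, its escort SCAP carries it to the Golgi for cleavage and the released part switches on nearly every enzyme gene of the pathway. When sterols are plentiful, the INSIG proteins hold SCAP and SREBP2 in the endoplasmic reticulum. SREBP2 binds sterol regulatory elements in promoters together with the general factors NF-Y and Sp1.

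Promoter windows are shown because the enzyme genes described below varied together between livers. RefSeq windows of build GRCm38.p6, which run from 250 bases before to 50 bases after the start of the gene, were matched by symbol for 22 of the 27 genes. No entry was matched for Fdps, Fdft1, Sqle, Stard4 and Npc1. The counts were made on mm9, so these windows were matched by symbol and not by position. The core of the sterol regulatory element, searched as TCACNCCAC on both strands, was found in the window of 1 of the 22 genes, Hmgcs1, and in 1.44% of all 27025 genes with a window. No variant of this string was searched, so a window without a match may still hold a sterol regulatory element. The NF-Y box CCAAT, searched on both strands, was in the windows of 20 of the 22 genes, against 41.1% of all genes and 42.9% of the tested genes. The Sp1 box GGGCGG, searched likewise, was also in 20 of the 22, against 38.2% of all genes and 67.3% of the tested genes. Each motif was searched on its own, so matches of different motifs may overlap. The first 4 windows below belong to the 4 measured genes with a window that spread most between livers. The last belongs to Lbr, a sterol reductase gene, chosen because it spread least of the measured genes with 2 CCAAT boxes. Capitals mark the CCAAT box, which reads ATTGG on the other strand, and all run 5′ to 3′ in the direction of the gene.
Mvd (chr8:122443373-122443672, minus strand): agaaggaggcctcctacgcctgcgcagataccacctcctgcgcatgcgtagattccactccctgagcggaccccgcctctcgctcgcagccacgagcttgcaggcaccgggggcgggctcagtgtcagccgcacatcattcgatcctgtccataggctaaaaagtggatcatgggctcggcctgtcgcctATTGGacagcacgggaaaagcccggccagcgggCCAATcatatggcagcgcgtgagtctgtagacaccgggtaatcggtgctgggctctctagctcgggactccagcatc
Msmo1 (chr8:64733529-64733828, minus strand): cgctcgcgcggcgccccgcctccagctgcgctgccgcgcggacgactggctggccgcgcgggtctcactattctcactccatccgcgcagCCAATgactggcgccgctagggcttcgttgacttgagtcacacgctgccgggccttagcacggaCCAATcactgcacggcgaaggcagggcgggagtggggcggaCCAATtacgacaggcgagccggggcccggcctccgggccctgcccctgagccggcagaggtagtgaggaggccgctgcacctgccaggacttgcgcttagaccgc
Nsdhl (chrX:72918271-72918570, plus strand): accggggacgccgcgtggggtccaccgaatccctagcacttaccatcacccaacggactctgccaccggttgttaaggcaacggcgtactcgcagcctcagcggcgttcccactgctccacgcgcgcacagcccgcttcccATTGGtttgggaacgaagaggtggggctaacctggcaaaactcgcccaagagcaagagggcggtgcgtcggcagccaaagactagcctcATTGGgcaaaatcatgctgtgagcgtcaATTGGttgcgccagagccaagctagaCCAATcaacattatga
Idi1 (chr13:8885356-8885655, plus strand): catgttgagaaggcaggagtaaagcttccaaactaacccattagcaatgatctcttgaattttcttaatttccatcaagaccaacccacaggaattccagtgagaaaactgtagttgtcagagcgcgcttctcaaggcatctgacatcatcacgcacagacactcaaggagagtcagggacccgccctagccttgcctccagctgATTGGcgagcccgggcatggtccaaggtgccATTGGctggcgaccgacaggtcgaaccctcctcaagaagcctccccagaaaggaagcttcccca
Lbr (chr1:181842352-181842651, minus strand): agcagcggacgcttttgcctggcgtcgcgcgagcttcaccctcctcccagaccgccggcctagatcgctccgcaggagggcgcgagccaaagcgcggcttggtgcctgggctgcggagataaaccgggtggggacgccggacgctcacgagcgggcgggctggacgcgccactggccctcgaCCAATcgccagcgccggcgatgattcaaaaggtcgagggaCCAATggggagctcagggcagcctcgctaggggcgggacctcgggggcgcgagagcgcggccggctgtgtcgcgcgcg
The window of Nsdhl held 4 boxes, Msmo1 held 3, and Mvd, Idi1 and Lbr held 2 each. Lbr was chosen for its 2 boxes, so its match to Mvd and Idi1 was fixed in advance and says nothing about spread. The measured gene with a window that spread least, Scap, held 0 (SD of log2 CPM within genotype 0.11). Acat2 also held 0 although it spread more (SD 0.36). Ggps1, which spread little (SD 0.15), held 3, and Mvk (SD 0.58) held 5. Of the 9 genes with a window whose highest liver was at least 2-fold above its lowest, 9 held the box, and of the other 12 measured genes with a window 10 did. A match is a description of the letters and not evidence of binding.

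Library totals ranged from 20032822 to 21402396 counts in Het and from 19840541 to 22041117 counts in WT livers. Levels are given as CPM, counts scaled to the size of the library, with TMM factors of 0.977 to 1.02. Ing5 itself had 193, 217 and 180 counts in Het and 182, 228 and 191 counts in WT livers. The 9 hepatocyte markers, Alb and Apoa1 among them, summed to 87916 to 106551 CPM in Het and 84679 to 98888 CPM in WT livers. Alb alone reached 78783 CPM, in Het replicate 1, so this sum mainly follows 1 gene. Of the 12631 genes tested, 0 passed the edgeR quasi-likelihood test at a Benjamini-Hochberg adjusted p of 0.05, while 547 had an unadjusted p under 0.05. DESeq2 called 13 genes (0.103% of those with an adjusted p), and limma-voom called 0 (0%). In these bulk samples, fewer cells of a type and less RNA per cell cannot be told apart.

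No gene of the set differed between genotypes beyond the spread of the livers. Of the 26 genes, 0 passed the edgeR test (adjusted p = 0.9998 for each), against 0% of all genes tested. An unadjusted p under 0.05 was reached by 0 of the 26, against 4.33% of all genes. The 3 Het and 3 WT values overlapped for all 26, whereas they were separated for 8.99% of all genes. The log2 fold change of Het over WT was below 0 for 20 of the 26, against 49.7% of all genes, but its median was only -0.05, against 0.00088 over all genes. The values ran from -0.37 for Sqle to 0.20 for Scap. For 17 of the 26 genes the 95% interval left out a change of 2-fold in either direction, and for the other 9 it did not. DESeq2 and limma-voom called 0 of the 26 as well.

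**Figure D1:**
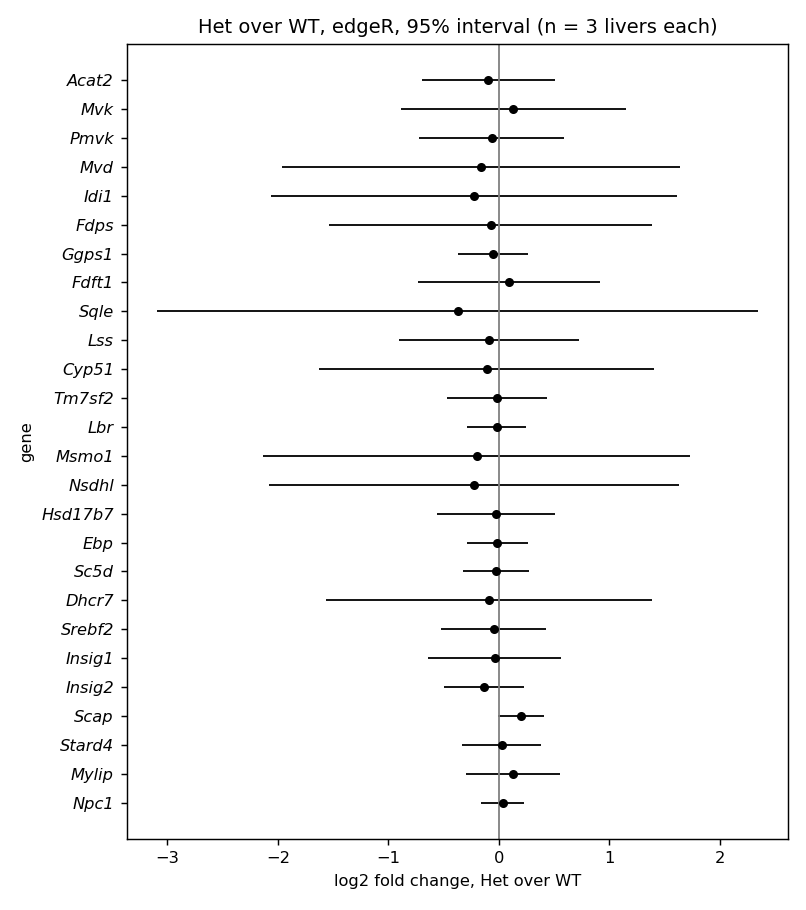
Log2 fold change of Het over WT for the 26 genes (x axis) with its 95% interval from the edgeR fit, n = 3 livers per genotype, ordered by pathway step from the top. Every interval includes 0, and those of Sqle, Idi1, Nsdhl, Msmo1 and Mvd are the 5 widest.

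The spread came from single livers, and the same livers stood out from gene to gene. Het replicate 1 had the highest value of the 6 livers for 16 of the 26 genes, against 14.8% of all genes tested. Het replicate 2 had the lowest value for 19 of the 26, against 17.3% of all genes. For 15 genes both were true, against 4% of all genes. For 14 genes Het replicate 1 and WT replicate 2 were the 2 highest livers and Het replicate 2 the lowest, against 2.49% of all genes. The full order from Het replicate 1 through WT replicates 2, 3 and 1 to Het replicates 3 and 2 was found for 9 of the 26, against 0.38% of all genes. These 9 were Acat2, Mvd, Fdps, Sqle, Lss, Cyp51, Nsdhl, Hsd17b7 and Dhcr7. The highest and the lowest liver thus carried the same genotype. The highest liver was at least 2-fold above the lowest for 12 of the 26 genes, against 13.1% of all genes.

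The direction between genotypes therefore turned on which liver was left out. Without Het replicate 1, 22 of the 26 genes were lower in Het, against 49.3% of all genes in that fit, with a median log2 fold change of -0.31. An unadjusted p under 0.05 was then found for 8 of the 26, against 7.33% of all genes in that fit. Without Het replicate 2, 4 of the 26 were lower, against 50.4% of all genes, with a median of 0.14. Without WT replicate 2, 10 of the 26 were lower, against 49% of all genes, with a median of 0.04. With edgeR, 0 of the 26 passed in any of these fits, and the smallest adjusted p with a liver left out was 0.322, for Insig2 without WT replicate 3.

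**Figure D2:**
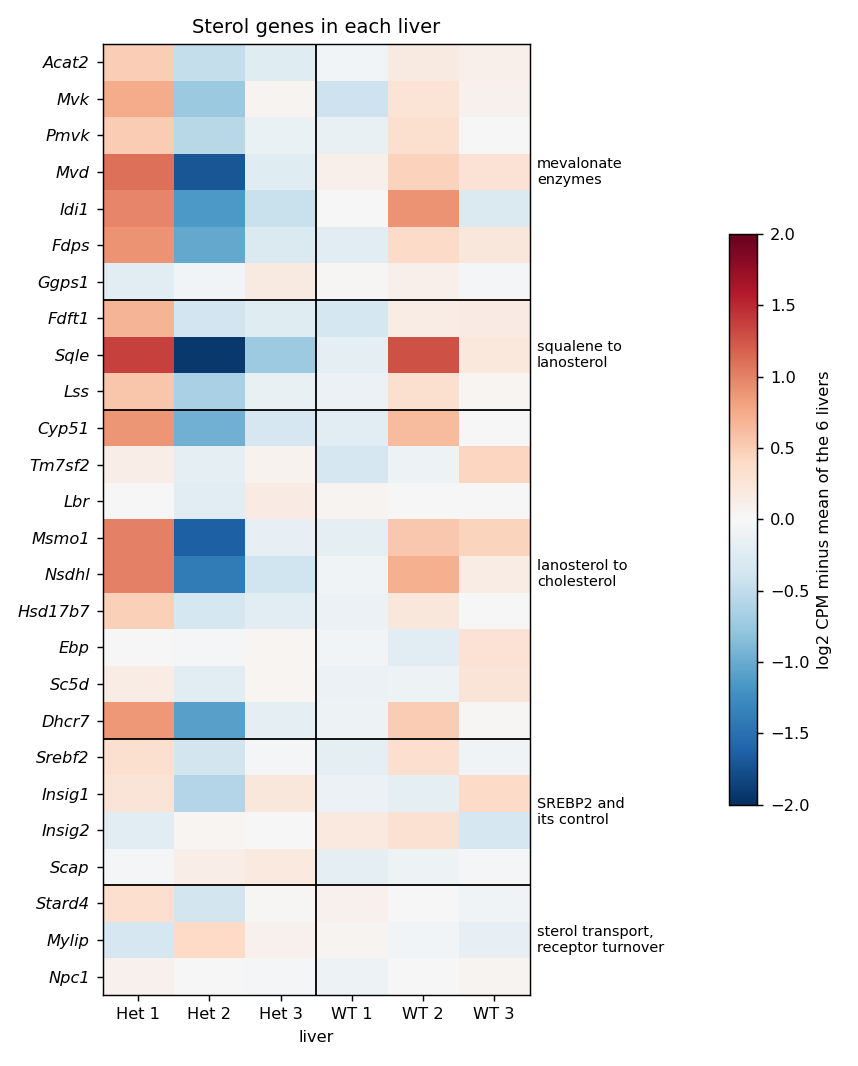
Log2 CPM of each gene minus its mean over the 6 livers, shown by colour, with Het livers in the left 3 columns and WT livers in the right 3 and the genes grouped by pathway step. Het replicate 1 is high and Het replicate 2 low for most enzymes of the first 3 blocks, while Ggps1, Lbr, Ebp, Scap and Npc1 are nearly even.

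The early enzymes make mevalonate into isoprenoid diphosphates. Mvd, the decarboxylase that makes isopentenyl diphosphate, had 13.2, 1.89 and 5.22 CPM in Het and 6.64, 8.53 and 7.55 CPM in WT livers. The WT livers lay close together, and the Het livers lay on either side of them. Its means were 6.78 ± 5.84 CPM in Het and 7.58 ± 0.944 CPM in WT livers (SD, n = 3 each), and the log2 fold change was -0.16 (SE 0.69). Idi1, the isomerase of the next step, had 42.6, 9.75 and 15.9 CPM in Het and 21.7, 40.2 and 17.6 CPM in WT livers. Here the highest livers of the 2 genotypes were alike, and 1 WT liver was nearly as low as Het replicate 3. Idi1 has pseudogene copies with at least 90% identity over 679 to 684 bases, so its counts are uncertain, although the copy in the count tables, Gm13502, had at most 12 counts. Fdps, the farnesyl diphosphate synthase gene, had 121, 32.0 and 53.1 CPM in Het and 56.2, 84.8 and 76.2 CPM in WT livers. Again the Het livers enclosed the WT livers. Fdps shares 1124 bases of exon with Gm43738 on the same strand, so its counts are uncertain too. The log2 fold changes were -0.22 (SE 0.69) for Idi1 and -0.08 (SE 0.55) for Fdps.

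Mvk and Pmvk, which encode the kinases that phosphorylate mevalonate, followed in a narrower range. Mvk had 20.7, 7.40 and 12.8 CPM in Het and 9.24, 14.9 and 13.1 CPM in WT livers, and Pmvk averaged 15.3 ± 5.80 CPM in Het and 16.0 ± 2.66 CPM in WT livers. Acat2, the cytosolic acetoacetyl-CoA thiolase gene, had 51.1, 26.2 and 30.9 CPM in Het and 35.1, 41.5 and 38.9 CPM in WT livers. Its values are uncertain, because the transcript is 97.7% identical over 1477 bases to that of its neighbour Acat3, which had 3153 to 3890 counts per library against 569 to 1069 for Acat2. A stretch of 445 bases also aligned to Tcp1 at 98.7% identity, a gene with 2260 to 2546 counts. Ggps1, the geranylgeranyl diphosphate synthase gene at the branch to protein prenylation, stood apart from the other 6. It had 5.02, 5.61 and 6.63 CPM in Het and 5.97, 6.26 and 5.70 CPM in WT livers, with its lowest value in Het replicate 1, where the other 6 genes were highest. Its counts are uncertain too, because a pseudogene copy without counts here, Gm5630, is 97.2% identical over 903 bases.

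Of the 3 genes from squalene to lanosterol, Sqle spread most, as it did of all 26. Sqle, the squalene epoxidase gene and a control point of the pathway, had 67.4, 6.85 and 15.8 CPM in Het and 23.0, 63.3 and 30.1 CPM in WT livers. Het replicate 1 and WT replicate 2 were alike and high, and the highest liver was 9.83-fold above the lowest. The means were 30.0 ± 32.7 CPM in Het and 38.8 ± 21.5 CPM in WT livers (SD, n = 3 each). The log2 fold change was -0.37 (SE 1.003), a fold of 0.771 with a 95% interval of 0.117 to 5.09, so a change of severalfold in either direction was not detectable for this gene. Fdft1, the squalene synthase gene, had 139.7, 67.1 and 73.9 CPM in Het and 68.4, 97.6 and 98.0 CPM in WT livers. Its exons overlap those of Ctsb on the opposite strand, which had 8560 to 11124 counts against 1421 to 2922 for Fdft1. The counting strand was not given in the sources used here, so part of the Fdft1 count is uncertain. A pseudogene copy of Fdft1, Gm6781, is 97.4% identical over 1249 bases and had 0 counts. Lss, the gene of lanosterol synthase, averaged 49.9 ± 21.03 CPM in Het and 53.2 ± 8.53 CPM in WT livers, with its extremes in Het replicates 1 and 2.

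**Figure D3:**
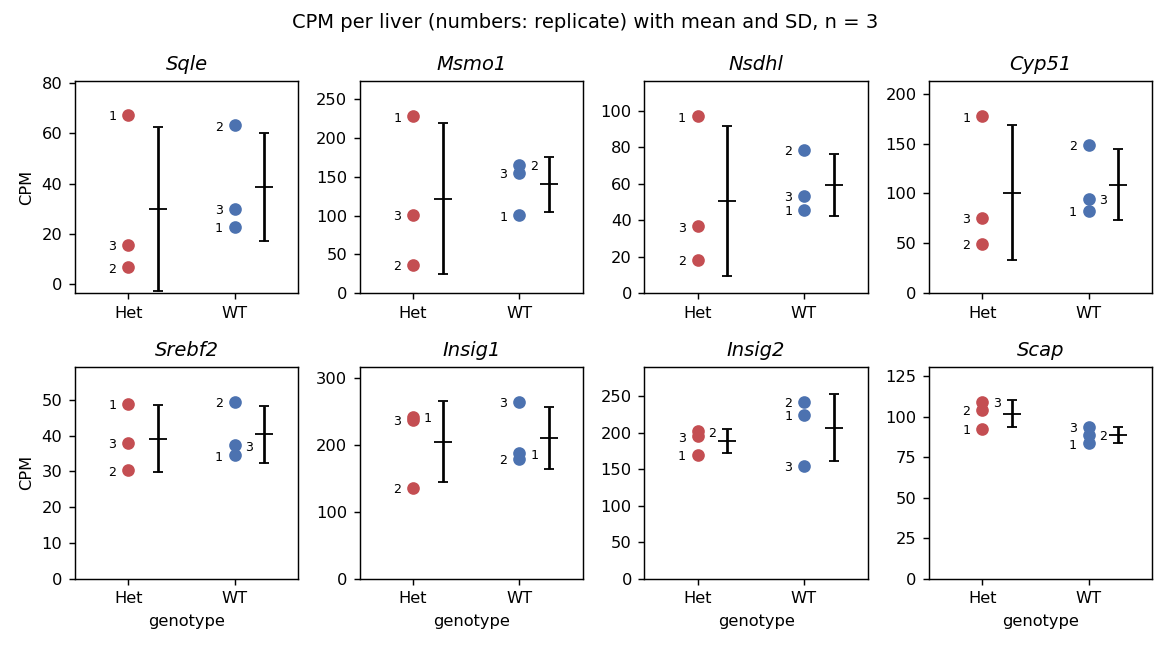
CPM of 8 genes in each liver (y axis), with Het livers left and WT livers right in each panel, replicate numbers beside the points, and the mean with SD (n = 3) as a bar. The 4 enzyme genes in the top row have Het replicate 1 highest and Het replicate 2 lowest, and the control genes in the bottom row spread less.

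Of the 9 genes of enzymes that turn lanosterol into cholesterol, 4 had a highest liver at least 2-fold above the lowest. Msmo1, the methylsterol monooxygenase that removes the C4 methyl groups, had 228, 36.5 and 101 CPM in Het and 100.1, 166 and 155 CPM in WT livers. Nsdhl, which acts in the same demethylation, had 96.8, 18.4 and 36.6 CPM in Het and 45.7, 78.4 and 53.3 CPM in WT livers. For both genes the Het livers held the highest and the lowest value, 6.25-fold apart for Msmo1 and 5.27-fold apart for Nsdhl. Cyp51, the lanosterol demethylase gene, had 177, 49.3 and 75.6 CPM in Het and 82.6, 149 and 94.8 CPM in WT livers. Dhcr7, the reductase gene of 7-dehydrocholesterol, had 88.3, 22.8 and 42.2 CPM in Het and 45.0, 68.7 and 49.2 CPM in WT livers. Their log2 fold changes were -0.20 (SE 0.72) for Msmo1, -0.23 (SE 0.69) for Nsdhl, -0.11 (SE 0.57) for Cyp51 and -0.09 (SE 0.56) for Dhcr7. Hsd17b7, the 3-ketosteroid reductase gene, kept the same order of livers in a range of 1.77-fold, with 62.1 ± 20.2 CPM in Het and 63.1 ± 7.96 CPM in WT livers. Cyp51 exons overlap Akap9 on the opposite strand, which had 888 to 1562 counts. Ggps1 exons overlap Arid4b likewise, which had 575 to 664 counts against 105 to 138 for Ggps1.

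Msmo1 differed from that order in 1 place, with Het replicate 3 just above WT replicate 1. The other 4 enzymes of this stage had neither Het replicate 1 highest nor that order. Tm7sf2 and Lbr encode sterol C14 reductases, and Lbr is also an anchor of heterochromatin at the nuclear envelope. Tm7sf2 had 79.9, 63.6 and 76.2 CPM in Het and 57.3, 67.6 and 97.2 CPM in WT livers, and Lbr 9.37, 8.09 and 10.4 CPM in Het and 9.67, 9.30 and 9.30 CPM in WT livers. Tm7sf2 was highest in WT replicate 3 and lowest in WT replicate 1, and Lbr hardly varied. Some Tm7sf2 exon sequence overlaps Vps51 on the same strand, which had 191 to 250 counts. Ebp, the sterol isomerase gene, averaged 129.9 ± 2.96 CPM in Het and 131 ± 24.0 CPM in WT livers, and the desaturase gene Sc5d 195 ± 24.9 CPM in Het and 198 ± 30.6 CPM in WT livers. Both were highest in WT replicate 3. A change of 2-fold lay outside the 95% interval for each of these 4, and Tm7sf2 had the widest interval, 0.722 to 1.36.

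The genes that control SREBP2 spread less than most enzymes. Srebf2 had 48.9, 30.3 and 38.0 CPM in Het and 34.5, 49.4 and 37.3 CPM in WT livers. Its 2 highest livers and its lowest were those of the enzymes, with 1.63-fold between the extremes. Its log2 fold change was -0.05 (SE 0.20), which as a fold is 0.967 (95% interval 0.695 to 1.35). Insig1, whose product holds SCAP in the endoplasmic reticulum and which is itself an SREBP target, had 242, 136 and 238 CPM in Het and 188, 179.9 and 265 CPM in WT livers. Het replicate 2 was lowest here too, but the highest liver was WT replicate 3, and WT replicate 2 was the second lowest. Insig2, its relative, had 169.8, 202 and 195 CPM in Het and 225, 242 and 154 CPM in WT livers. WT replicates 1 and 2 were highest and WT replicate 3 lowest, so Insig2 shared neither extreme with the enzymes. The log2 fold changes were -0.04 (SE 0.25) for Insig1 and -0.13 (SE 0.16) for Insig2. With WT replicate 3 left out Insig2 had a log2 fold change of -0.31, and with WT replicate 2 left out -0.0064.

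Scap, the gene of the escort protein, had the smallest unadjusted p of the 26. It had 92.5, 104 and 109 CPM in Het and 83.7, 88.9 and 93.9 CPM in WT livers, with Het replicate 1 below WT replicate 3. The means were 102 ± 8.55 CPM in Het and 88.8 ± 5.12 CPM in WT livers (SD, n = 3 each). The log2 fold change was 0.20 (SE 0.09), a fold of 1.15 with a 95% interval of 0.996 to 1.32, and it did not pass the edgeR test (unadjusted p = 0.055, Benjamini-Hochberg adjusted p = 0.9998; exact two-sided permutation p = 0.2, where 0.1 is the smallest that 3 against 3 livers allow). With Het replicate 1 left out Scap had a log2 fold change of 0.26, and with Het replicate 3 left out 0.15.

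The transport and turnover genes had a highest liver less than 2-fold above the lowest. Stard4, which encodes a cytosolic sterol carrier and is an SREBP2 target, had 224, 138 and 179.9 CPM in Het and 187, 176 and 169 CPM in WT livers, again with Het replicate 1 highest and Het replicate 2 lowest. Npc1, which exports cholesterol from lysosomes, had 196, 186 and 183 CPM in Het and 174, 186 and 193 CPM in WT livers, and its highest liver was only 1.13-fold above its lowest. Part of the Npc1 exons overlap Rmc1 on the opposite strand, which had 589 to 723 counts. Mylip, a ubiquitin ligase gene for lipoprotein receptors that is induced by LXR when sterols are plentiful, had 3.92, 6.53 and 5.22 CPM in Het and 5.15, 4.76 and 4.42 CPM in WT livers. Mylip was lowest in Het replicate 1 and highest in Het replicate 2, the reverse of most enzymes, but at 82 to 142 counts per library.

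Levels per length were compared with CPM divided by the kilobases of annotated exon (GENCODE M21 on GRCm38, not the annotation used for counting). On this scale Insig1 (66.4 in Het and 68.1 in WT livers), Insig2 (54.4 in Het and 59.6 in WT livers) and Ebp (56.2 in Het and 56.8 in WT livers) had the highest levels. Ggps1 (1.22 in Het and 1.27 in WT livers) and Mylip (1.62 in Het and 1.48 in WT livers) had the lowest. Between Fdft1, at 22.1 in Het and 20.8 in WT livers, and Cyp51, at 22.8 in Het and 24.6 in WT livers, the intermediate steps were lower. Sqle had a level per length of 5.41 in Het and 6.99 in WT livers, and Lss of 4.63 in Het and 4.93 in WT livers. The exon length, joined over all annotated transcripts, was 10787 bases for Lss, 4227 for Fdft1 and 4415 for Cyp51. Part of the gap for Lss therefore comes from the length used.

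The spread within a genotype was large for most of these genes compared with the rest of the transcriptome. The SD of log2 CPM within genotype had a median of 0.38 over the 26 genes and 0.15 over all genes tested. The 8 genes that spread most were Sqle (1.29), Mvd (0.98), Msmo1 (0.98), Nsdhl (0.90), Idi1 (0.88), Cyp51 (0.73), Dhcr7 (0.73) and Fdps (0.72). These 8 lay between the 98.5th and the 99.8th percentile of all genes tested. By stage, the median was 0.58 for the mevalonate enzymes, 0.46 from squalene to lanosterol, 0.34 from lanosterol to cholesterol, 0.29 for SREBP2 and its control and 0.25 for transport and turnover. Npc1, at 0.066, spread less than most genes of the liver.

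**Figure D4:**
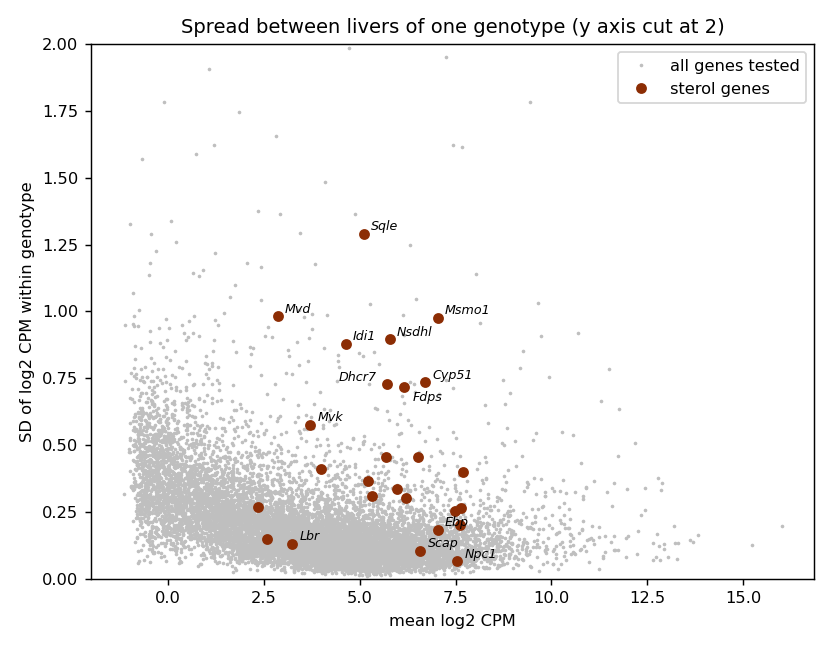
SD of log2 CPM within genotype (y axis) against mean log2 CPM (x axis) for all genes tested in grey and the 26 sterol genes in brown, over 3 Het and 3 WT livers. The axis ends at 2, above which 6 genes lie, and Sqle at 1.29 is the highest of the sterol genes.

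Other genes of sterol and isoprenoid metabolism were read from 5 further lists with 61 symbols, of which 56 were tested. With edgeR 0 of the 56 passed. An unadjusted p under 0.05 was found for 3, against 4.33% of all genes, and Het and WT values were separated for 8, against 8.99% of all genes. Their median log2 fold change was 0.01, and their within-genotype SD had a median of 0.13. In the list of SREBP processing and sterol sensing, the smallest p-values belonged to Mbtps2, the site-2 protease gene that frees SREBP from the membrane, and Pgrmc1, a haem-binding membrane protein gene. Mbtps2 had 9.03, 8.32 and 9.56 CPM in Het and 11.5, 10.5 and 9.87 CPM in WT livers (log2 fold change -0.24, SE 0.11), so all Het livers lay below all WT livers. Pgrmc1 averaged 1043 CPM in Het and 1167 CPM in WT livers (-0.16, SE 0.12), with overlapping values. Tmem97, an SREBP target gene that is induced when sterols are scarce, was named after its values were seen: it had 83.2, 37.4 and 45.8 CPM in Het and 54.6, 69.6 and 63.5 CPM in WT livers, the order of livers of the 9 enzyme genes.

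Among genes of efflux, esterification and uptake, Abcg8, part of the biliary sterol exporter, had 164, 196 and 163 CPM in Het and 149.7, 163 and 152 CPM in WT livers (log2 fold change 0.17, SE 0.10). The sterol carrier gene Stard5 had 182, 136 and 144 CPM in Het and 169.6, 171 and 166 CPM in WT livers (-0.14, SE 0.11). In the oxysterol and bile acid list, Cyp7b1, the oxysterol 7-alpha-hydroxylase, had 452, 437 and 557 CPM in Het and 333, 320.5 and 326 CPM in WT livers. All Het livers lay above all WT livers, with a log2 fold change of 0.56 (SE 0.12). The gene did not pass with edgeR (Benjamini-Hochberg adjusted p = 0.749), whereas DESeq2 called it, as the single call in these 5 lists. Hsd3b7, a dehydrogenase of bile acid synthesis, had 416, 428 and 440.2 CPM in Het and 350.02, 376 and 352 CPM in WT livers (0.25, SE 0.10; edgeR adjusted p = 0.9998).

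Among electron donors and accessory factors, Por, the reductase that feeds electrons to Cyp51 and Sqle proteins, had 281, 361 and 271 CPM in Het and 372, 344 and 331 CPM in WT livers (log2 fold change -0.20, SE 0.13). Cyb5r3, the cytochrome b5 reductase gene, averaged 304 CPM in Het and 333 CPM in WT livers (-0.13, SE 0.12). In the isoprenoid branches, Rce1, the prenyl protein protease gene, had 5.98, 7.13 and 5.85 CPM in Het and 5.15, 4.26 and 5.19 CPM in WT livers (0.38, SE 0.15). Dolk, the dolichol kinase gene, had 12.2, 12.9 and 13.4 CPM in Het and 14.4, 13.8 and 14.6 CPM in WT livers (-0.15, SE 0.09). Both were separated between genotypes, in opposite directions, and neither passed the edgeR test (adjusted p = 0.9998). The isoprenoid list had a median within-genotype SD of 0.12 on the log2 scale, against 0.58 for the mevalonate enzymes, and the oxysterol and bile acid list one of 0.47.

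The livers were also read by mean score, which averages over a list how far each gene's log2 CPM lay from its 6-liver mean. For the 26 sterol genes the scores were 0.46, -0.59 and -0.11 in Het and -0.11, 0.26 and 0.08 in WT livers. Fatty acid synthesis genes, which SREBP1 controls, scored 0.0092, -0.49 and -0.13 in Het and 0.30, 0.018 and 0.30 in WT livers. Het replicate 2 was thus lowest for both lists, while WT replicates 1 and 3 were the highest for fatty acid synthesis and neither was among the 2 highest for the sterol genes. The feeding and fasting genes scored 0.16, -0.30 and -0.16 in Het and 0.10, 0.17 and 0.03 in WT livers, and the clock genes -0.012, -0.11 and 0.014 in Het and 0.11, 0.014 and -0.018 in WT livers. Acute-phase genes scored 0.61, -0.95 and -1.29 in Het and 0.85, 1.95 and -1.17 in WT livers. WT replicate 3, close to the bottom of the acute-phase list, was below only Het replicate 1 and WT replicate 2 for the sterol genes.

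**Figure D5:**
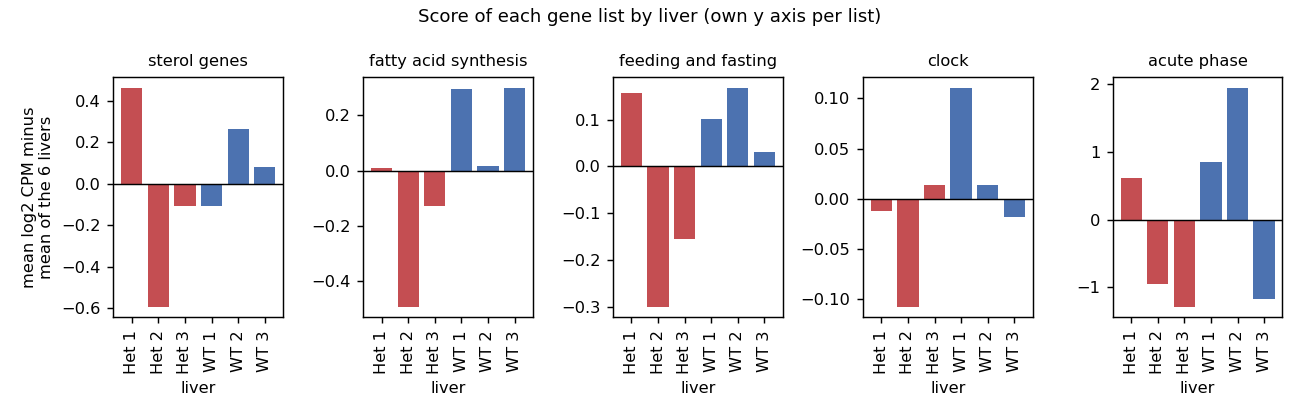
Mean score (y axis, distance of log2 CPM from the 6-liver mean, with its own scale in each panel) of the sterol genes and of 4 other lists in each liver (x axis), Het livers in red and WT livers in blue. Het replicate 2 is the lowest liver in the first 4 panels, and Het replicate 1 is highest only in the sterol panel.

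Markers of other cells were read beside this pattern, and their part in it was not tested. The 6 Kupffer cell and macrophage markers summed to 114, 154 and 91.4 CPM in Het and 137, 133 and 83.6 CPM in WT livers. The 6 stellate cell markers summed to 198, 240.4 and 196 CPM in Het and 192, 148 and 215 CPM in WT livers, and the 6 lymphocyte markers to 6.31, 9.80 and 5.85 CPM in Het and 7.08, 8.03 and 6.48 CPM in WT livers. Only 3 of the 6 lymphocyte markers passed the filter on low counts, and the most abundant of them reached 6.90 CPM in its highest liver. Het replicate 2, the lowest liver for most sterol genes, was the highest for these 3 lists. It also had the highest mean score of the cholangiocyte markers, 0.24, although their sum ran from 26.9 to 29.1 CPM in Het and from 29.5 to 33.4 CPM in WT livers. The most abundant of these 5 markers reached 29.7 CPM in a WT liver, so 1 marker made most of the sum there. The sinusoidal endothelial markers summed to 115 to 139 CPM in Het and 119 to 147 CPM in WT livers. The pancreatic acinar markers, of which 4 of 6 were at 0 in every liver, summed to 45.6 to 60.7 CPM in Het and 38.8 to 57.3 CPM in WT livers. Only 1 of the 6 passed the filter on low counts. A single acinar marker reached 60.5 CPM, nearly all of the highest sum, so the sum does not stand for the list. Of the 5 adipocyte markers, Adipoq, Plin1, Lep and Retn had at most 2 counts in any library, so the defining genes of that cell were near 0. The fifth, Cidec, a lipid droplet gene that hepatocytes can also express, had 4.25, 0.966 and 1.27 CPM in Het and 1.64, 3.18 and 1.64 CPM in WT livers. Het replicates 1 and 2, the extremes of the sterol genes, had 21402396 and 21272147 total counts, 7.70% and 6.52% of them from Alb and 11.6% and 11.5% from mitochondrial genes.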

How the data were processed

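Polyadenylated RNA of 6 mouse livers, isolated with Trizol, was sequenced from Illumina TruSeq libraries, per the labels' protocols. The authors deposited whole-number counts per Ensembl gene ID, not normalised. TopHat2 2.0.11, HTSeq 0.6.1, DESeq and mm9 are named, without their role, per the submitters' processing notes, while annotation release and counting strand are not given in the sources used here. Genotype and replicate number come from the labels. Symbols were matched by Ensembl ID for 32919 of 37991 IDs.

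Counts were filtered with filterByExpr, which left 12631 genes, normalised with TMM and tested with the robust quasi-likelihood fit of edgeR 4.0.16 in R 4.3.3, genotype as the sole factor, with Benjamini-Hochberg adjustment over all genes and a threshold of 0.05. SE and 95% intervals come from the F statistic. Log2 CPM used a prior count of 2. Alternatives were DESeq2 1.42.0, limma-voom (limma 3.58.1), other filters and scalings, the replicate number as a block, and each library left out. A count of 0 allows up to 3 counts, 0.136 to 0.151 CPM, for counting error only. The steps were tested on simulated counts. No library was a copy of another (chi-square per degree of freedom of 9.33 to 72.1). Overlaps and copies (at least 90% identity over 400 bases) come from GENCODE M21.

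The genes and lists were chosen with earlier results of these data known. Named with values per liver are the 8 genes of the set with the largest spread, the 6 with the smallest p and the SREBP2 control genes; of the other sterol lists, the 2 with the smallest p each. Further genes of the set, Tmem97, Cidec and the genes in the closing section were added after their values were seen. The planned rule for printing promoters asked for a sterol element core. No window of a measured gene held it, so the windows were chosen by spread instead. That of Lbr was chosen as the least spread among the measured genes with 2 CCAAT boxes.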

Additional observations from a re-analysis of the deposited data

How the results depend on the processing

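Of the 26 sterol genes, 0 were called in any alternative run, also at a threshold of 0.1. Over all genes tested, the count of 0 became 1 with no low-count filter, 13 with DESeq2, and 0 to 17 with a library left out, of which 10 came without Het replicate 1 and 17 without WT replicate 3. Of the other sterol and isoprenoid genes, DESeq2 called 1, Cyp7b1. The median log2 fold change of the 26 was -0.05, and -0.31 to 0.14 with a library left out. Tm7sf2 was at 0.012 with limma-voom and with the replicate block, Ebp at 0.00043 with the block, and Stard4 at -0.00054 with limma-voom and -0.0014 with the block, all close to 0. The cause was not tested.

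With a library left out, the log2 fold change changed sign for 24 of the 26, and not for Insig2 (-0.31 to -0.0064) or Scap (0.15 to 0.26). The ranges were Acat2 -0.43 to 0.091, Mvk -0.30 to 0.43, Pmvk -0.40 to 0.15, Mvd -1.10 to 0.29, Idi1 -1.05 to 0.21, Fdps -0.77 to 0.27, Ggps1 -0.17 to 0.033, Fdft1 -0.32 to 0.28, Sqle -1.79 to 0.18, Lss -0.47 to 0.15, Cyp51 -0.80 to 0.22, Tm7sf2 -0.17 to 0.23, and Lbr -0.11 to 0.071. They were Msmo1 -1.03 to 0.23, Nsdhl -1.11 to 0.17, Hsd17b7 -0.32 to 0.13, Ebp -0.12 to 0.14, Sc5d -0.11 to 0.11, Dhcr7 -0.74 to 0.27, Srebf2 -0.24 to 0.12, Insig1 -0.17 to 0.19, Stard4 -0.16 to 0.19, Mylip -0.066 to 0.30, and Npc1 -0.0097 to 0.069.

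The deviations of livers with the same replicate number had correlations across genes of -0.02 for replicate 1, -0.08 for replicate 2 and 0.22 for replicate 3. Pairs with different numbers ran from -0.22, for Het replicate 3 with WT replicate 2, to 0.25, for Het replicate 1 with WT replicate 2. The numbers were therefore not taken to pair the livers, and the fit with the replicate number as a block called 0 genes. With 3 livers a group and the spread above, the SE on the log2 scale had a median of 0.25 for the 26 genes and 0.12 for all genes, so small changes were not detectable.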

Other observations

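Across all 12631 genes tested, 48 had the liver order that 9 of the sterol genes share, from Het replicate 1 through WT replicates 2, 3 and 1 to Het replicates 3 and 2. The highest liver was at least 2-fold above the lowest for 13 of the 48. Of these 13, 7 were sterol genes of the set and 6 were not. The 6 others, named after their values were seen, were Cidec, Fabp4, Fitm1, Tmem97, Uqcrc2 and Slc20a1. Cidec coats lipid droplets, Fabp4 encodes a fatty acid binding protein of adipocytes and macrophages, and Fitm1 encodes a protein of lipid droplet formation. Fabp4 had 7.70, 2.81 and 3.07 CPM in Het and 3.27, 4.22 and 3.75 CPM in WT livers, so Het replicate 1 stood above the other 5. Fitm1 had 32.8, 13.8 and 21.02 CPM in Het and 23.8, 25.5 and 24.8 CPM in WT livers, where the 3 WT livers were close together. Uqcrc2, a core subunit gene of respiratory complex III, had 544, 264 and 402 CPM in Het and 415, 508 and 458 CPM in WT livers. Slc20a1, a phosphate transporter gene, had 47.9, 23.4 and 35.1 CPM in Het and 39.0, 44.7 and 40.0 CPM in WT livers. For both, Het replicate 2 was well below the other 5 livers. The order was read from these same livers, so the list is a description of them.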
